A study of Mus musculus with 40 samples.

Results

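The genes described here are the 31 listed genes of sterol synthesis, of control by the transcription factor SREBP2 and of cholesterol transport and storage, out of 28467 genes in the deposited bulk table and 32285 in the deposited nucleus table. They were chosen by name, from knowledge of the pathway and with earlier results of these data known. All 31 were present in both tables and passed the filter on low counts at 24, 48 and 72 h in bulk. By role they comprise 5 enzymes of the early mevalonate pathway, 3 of isoprenoid synthesis, 3 that form squalene and lanosterol, 9 of the steps after lanosterol (20 enzymes in all), 4 genes of SREBP2 control and 7 of transport and storage. The mice were C57BL/6 males aged 8 to 12 weeks, and mRNA was measured in their right kidney after removal of the left kidney (unilateral nephrectomy, UNx) or after sham surgery, both under isoflurane with buprenorphine. Bulk RNA-seq of kidney cross-sections covered 6 sham and 6 UNx mice at each of 24, 48 and 72 h, 36 libraries in all, each labelled as its own mouse. The labels put the 24 h libraries in batch 1 and the 48 h and 72 h libraries in batch 2. Single-nucleus RNA-seq covered 2 sham and 2 UNx mice at 24 h, with replicate 1 of each group in batch 3 and replicate 2 in batch 4. The comparison asks how the kidney that remains differs from one whose partner is still in place.

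Cells make cholesterol from acetyl-CoA. The early enzymes make mevalonate and phosphorylate it, isoprenoid enzymes build farnesyl diphosphate, squalene is formed and cyclised to lanosterol, and the post-lanosterol enzymes trim lanosterol to cholesterol. SREBP2, encoded by Srebf2, is held in the endoplasmic reticulum by Scap and the Insig proteins while sterol is plentiful. When sterol falls, Scap escorts SREBP2 to the Golgi, where proteases free the part that enters the nucleus and drives most genes of the pathway. Liver X receptors (LXRs) work the other way: activated by oxysterols, they drive the exporters Abca1 and Abcg1, and Mylip, a ubiquitin ligase that removes lipoprotein receptors. In the kidney, proximal tubule cells take up filtered carriers of lipids, and tubule cells also make sterol for their extensive membranes.

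SREBP2 acts at gene starts through the sterol regulatory element, usually beside boxes for the factors NF-Y and Sp1. Windows of 300 bases, from 250 before to 50 after the annotated start, were taken from RefSeq on GRCm38.p6, and 25 of the 31 genes have at least 1 window there. Fdft1, Sqle, Fdps, Stard4, Abcg1 and Npc1 have none, and the counts below leave them out. Letters were searched on both strands over every window of a gene. The element TCACNCCAC was present in 1 of the 25 genes (Hmgcs1), against 1.44% of the 27025 genes of the table. Its shorter form TCACNCCA, which overlaps it, was present in 3 of 25 (12.0%), against 4.97%. The NF-Y box CCAAT was present in 22 of 25 (88.0%), against 41.1% of all genes and 42.5% of the 10706 genes of the table that were tested in bulk at 24 h. The Sp1 box GGGCGG was present in 23 of 25 (92.0%), against 38.2% and 67.1%. A match of letters is a description and not a measured binding site. The 250 bases before the start are shown for the 3 genes with the shorter element, because 2 of them, Hmgcs1 and Msmo1, encode enzymes whose mRNA rose at 24 h and the third is Srebf2 itself. Abca1, the exporter whose mRNA fell, is shown beside them. Each runs 5′ to 3′ along the gene's strand, and capitals mark TCACNCCA and CCAAT, or its reverse complement where the box is on the other strand. Hmgcs1 lies at chr13:119690101-119690350 (plus strand), Msmo1 at chr8:64733579-64733828 (minus strand), Srebf2 at chr15:82147019-82147268 (plus strand) and Abca1 at chr4:53159896-53160145 (minus strand).
Hmgcs1: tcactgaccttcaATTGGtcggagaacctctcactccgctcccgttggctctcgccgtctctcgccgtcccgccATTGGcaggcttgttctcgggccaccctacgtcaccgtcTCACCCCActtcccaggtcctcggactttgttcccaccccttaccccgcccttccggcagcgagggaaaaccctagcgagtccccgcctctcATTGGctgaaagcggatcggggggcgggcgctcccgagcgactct
Msmo1: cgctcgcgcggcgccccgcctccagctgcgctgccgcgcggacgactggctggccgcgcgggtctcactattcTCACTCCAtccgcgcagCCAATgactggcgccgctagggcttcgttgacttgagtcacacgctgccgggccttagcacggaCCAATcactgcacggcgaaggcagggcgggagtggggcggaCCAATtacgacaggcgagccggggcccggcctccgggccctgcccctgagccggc
Srebf2: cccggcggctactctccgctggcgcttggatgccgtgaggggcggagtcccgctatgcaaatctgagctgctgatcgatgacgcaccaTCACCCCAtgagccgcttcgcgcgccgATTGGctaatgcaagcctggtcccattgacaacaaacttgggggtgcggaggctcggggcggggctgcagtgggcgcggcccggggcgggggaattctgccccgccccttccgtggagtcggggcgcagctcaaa
Abca1: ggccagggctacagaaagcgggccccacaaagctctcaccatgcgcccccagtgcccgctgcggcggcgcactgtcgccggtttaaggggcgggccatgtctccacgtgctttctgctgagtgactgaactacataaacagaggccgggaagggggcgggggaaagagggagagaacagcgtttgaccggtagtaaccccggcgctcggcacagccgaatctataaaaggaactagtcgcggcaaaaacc
Counted from the start, the element begins at -137 in Hmgcs1, at -177 in Msmo1 and at -162 in Srebf2. Hmgcs1 and Msmo1 each hold 3 CCAAT boxes in these bases, Srebf2 holds 1 and Abca1 holds none. The box did not separate genes by direction at 24 h. Mylip and Soat1, whose mRNAs also fell, hold it before the start. Acat2 and Scap, whose mRNAs rose, hold it in none of their windows.

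Bulk libraries held 14.9 to 24.1 M estimated counts (M, 1e+06). Libraries differed in ways that the labelled groups do not explain. A score built from 154 pseudogene transcripts (0 at the mean of the 48 h and 72 h shams, 1 at the mean of the 24 h shams) was 0.957 to 1.04 in the 24 h shams and 0.677 to 0.892 in the 24 h UNx libraries. At 48 h it was -0.0329 to 0.0608 in the shams and 0.652 to 0.730 in UNx replicates 1 to 5, but 0.0176 in UNx replicate 6. The share of counts from mitochondrially encoded genes was 14.0 to 15.5% in the 48 h shams, 25.8 to 26.4% in UNx replicates 1 to 5 and 15.2% in UNx replicate 6. At 72 h both groups had scores near 0 and mitochondrial shares of 13.6 to 16.1%. Surgery and this library profile therefore separate the same libraries at 24 h, and nearly so at 48 h, and cannot be told apart within those times. Summed CPM of markers of the adrenal cortex, which synthesises steroids and lies next to the kidney, was 1.72 to 4.61 in every library. In bulk tissue, fewer cells of a type and less RNA per cell cannot be told apart.

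At 24 h the mRNAs of sterol synthesis were higher in the remaining kidney than after sham surgery. Of the 20 enzymes, 16 rose and none fell, with a median log2 fold change of 0.49 (UNx minus sham). All 4 genes of SREBP2 control rose. Among the 7 transport and storage genes only Stard4 rose, while Abca1, Mylip and Soat1 fell. Over the 31 genes, 21 rose, against 13.9% of the 14104 genes tested, and 3 fell, against 13.1% (edgeR's quasi-likelihood test, 6 mice a group, called at an adjusted p under 0.05). Their median was 0.39, against 0.01 over the genes tested. In 15 of the 31 genes every UNx library lay above every sham library, against 5.75% of genes tested, and in 2 (Mylip and Soat1) every UNx library lay below, against 4.62%. Levels below are CPM (counts scaled to a library total of 1e+06) after TMM scaling, which sets aside differences in library composition. Levels of different genes are not compared, because CPM does not account for transcript length.

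**Figure D1:**
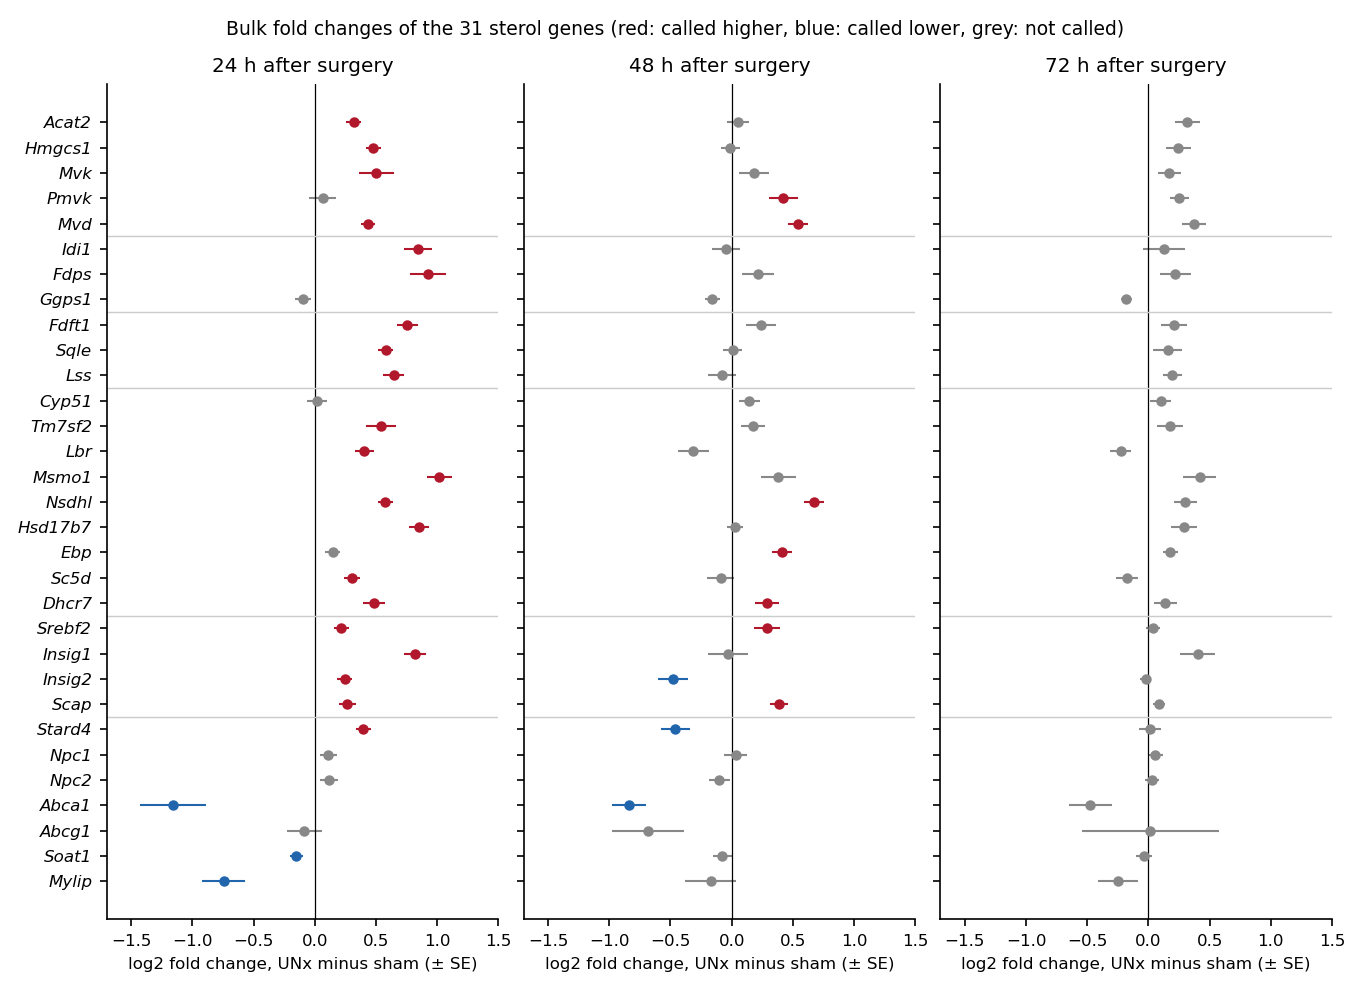
Log2 fold change, UNx minus sham, with its standard error for the 31 genes in bulk kidney at 24, 48 and 72 h (x axis log2 units, 1 row per gene, grey lines between roles). Red and blue mark genes called higher and lower. At 24 h 21 genes are red and 3 blue, at 48 h 7 and 3, and at 72 h none.

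In the early mevalonate pathway 4 of 5 genes rose, with a median log2 fold change of 0.43. Hmgcs1 encodes the cytosolic synthase that makes HMG-CoA. Its lowest, median and highest CPM were 528, 588 and 614 in the shams and 719, 815 and 856 in the UNx kidneys. The groups did not overlap, and the log2 fold change was 0.48 ± 0.0604 (SE), or 1.39-fold, with an adjusted p of 7.13e-05 (edgeR). Mvd, which decarboxylates the last mevalonate intermediate, rose from 51.9 ± 3.92 to 70.2 ± 2.66 CPM (mean ± SD, n = 6 in this and the following values of this form) by 0.43 on the log2 scale, without overlap. Mvk, the first mevalonate kinase, rose by 0.50 with overlapping groups. Acat2, a cytosolic acetoacetyl-CoA thiolase, rose by 0.32 without overlap. Its value is uncertain, because Acat3 is a near-identical copy and estimated counts can move between the pair. Pmvk, the second kinase, was not called (0.06 ± 0.111).

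Of the isoprenoid enzymes 2 of 3 rose. Idi1, the isomerase that makes dimethylallyl diphosphate, had a lowest, median and highest CPM of 74.7, 98.3 and 117 in the shams and 129, 181 and 201 in the UNx kidneys. The lowest UNx library was above the highest sham, and the log2 fold change was 0.84 ± 0.116 (adjusted p = 0.00025, edgeR). Fdps, which makes farnesyl diphosphate, rose from 18.7 ± 3.96 to 35.6 ± 6.31 CPM, by 0.92, also without overlap. Ggps1 leads away from sterol, to geranylgeranyl diphosphate for protein prenylation, and was not called (-0.10 ± 0.0623).

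The 3 genes that commit carbon to sterol all rose without overlap. Sqle, the squalene epoxidase and a slow step of the late pathway, stood at 57.0, 65.4 and 72.4 CPM (lowest, median, highest) in the shams and at 90.1, 97.2 and 104 in the UNx kidneys. Its spread within a group was small beside the gap between groups, and its log2 fold change was 0.58 ± 0.0608 (adjusted p = 1.93e-05, edgeR). Fdft1, squalene synthase, rose by 0.76, from 27.5 ± 2.85 to 46.5 ± 5.41 CPM. Lss, lanosterol synthase, rose by 0.64, from 23.0 ± 1.55 to 36.1 ± 5.31 CPM.

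Of the 9 post-lanosterol enzymes 7 rose, with a median of 0.48. Hsd17b7, a 3-ketosteroid reductase of the demethylation complex, had CPM of 16.5, 18.8 and 23.7 (lowest, median, highest) in the shams and 33.1, 35.4 and 38.1 in the UNx kidneys. The groups were far apart, and the log2 fold change was 0.85 ± 0.0782 (1.80-fold), with an adjusted p of 4.56e-06 (edgeR), the lowest p among the 31 genes at this time. Msmo1, the C4 methyl oxidase of the same complex, had the largest rise of the 31, from 32.6 ± 5.71 to 66.1 ± 6.38 CPM (2.03-fold). Nsdhl, the complex's dehydrogenase, rose by 0.58, from 53.3 ± 1.44 to 79.5 ± 7.77 CPM. Lbr and Tm7sf2 both encode sterol C14 reductases, and rose by 0.40 without overlap and by 0.54 with overlap. Dhcr7, the last reductase on the way to cholesterol, rose by 0.48 with overlap, and Sc5d, the C5 desaturase, by 0.31 without overlap. Cyp51, the lanosterol demethylase, stands apart from its neighbours in the pathway: it was 328 ± 39.0 CPM in the shams and 333 ± 32.7 in the UNx kidneys, and was not called (0.02 ± 0.0800). Ebp, the sterol isomerase, was also not called (0.14 ± 0.0644, adjusted p = 0.106, edgeR).

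All 4 control genes rose, by unequal amounts. Insig1, which retains Scap in the endoplasmic reticulum and is itself a SREBP target, had CPM of 41.0, 50.7 and 54.4 (lowest, median, highest) in the shams and 78.3, 83.6 and 114 in the UNx kidneys. The highest value belongs to UNx replicate 4 and the other 5 UNx libraries reached at most 87.0, still above every sham. Its log2 fold change was 0.82 ± 0.0886 (adjusted p = 2.73e-05, edgeR), and 0.73 without replicate 4. Scap rose by 0.27, Insig2 by 0.24 and Srebf2 by 0.22, each with overlapping groups.

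The transport and storage genes moved in both directions. Stard4, a soluble sterol carrier and SREBP2 target, had CPM of 57.4, 68.0 and 71.9 (lowest, median, highest) in the shams and 80.9, 86.3 and 98.0 in the UNx kidneys. It rose without overlap, by 0.39 ± 0.0622 (adjusted p = 0.000355, edgeR). Mylip stood at 33.3, 37.8 and 45.9 CPM in the shams and at 13.7, 23.7 and 30.7 in the UNx kidneys. It fell without overlap, with a log2 fold change of -0.74 ± 0.174 (adjusted p = 0.00834, edgeR). Abca1, the exporter that loads cholesterol onto apolipoprotein A-I, stood at 22.5, 28.3 and 41.6 CPM in the shams and at 9.41, 11.9 and 27.6 in the UNx kidneys. Only UNx replicate 4 reached the sham range, and the other 5 UNx libraries were at 9.41 to 12.0 CPM. Abca1 fell by 1.16 ± 0.269 on the log2 scale (2.24-fold lower, adjusted p = 0.00953, edgeR). Soat1 esterifies cholesterol for storage, and stood at 20.0, 20.5 and 21.2 CPM in the shams and at 17.7, 18.2 and 19.7 in the UNx kidneys. Its groups did not overlap, but the fall was small, -0.15 ± 0.0546, with an adjusted p of 0.048 (edgeR) that lies just inside the threshold. The Soat1 call was lost without any 1 of the 6 shams and without UNx replicate 2, 4, 5 or 6 (adjusted p of 0.0596 to 0.104, edgeR), and with a replicate block (adjusted p = 0.101, edgeR), with no filter on low counts (0.164) and in the fit of all 36 libraries (0.0593). Npc1 and Npc2, which release cholesterol from lysosomes, and Abcg1, the second LXR-driven exporter, were not called (0.11, 0.12 and -0.08).

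**Figure D2:**
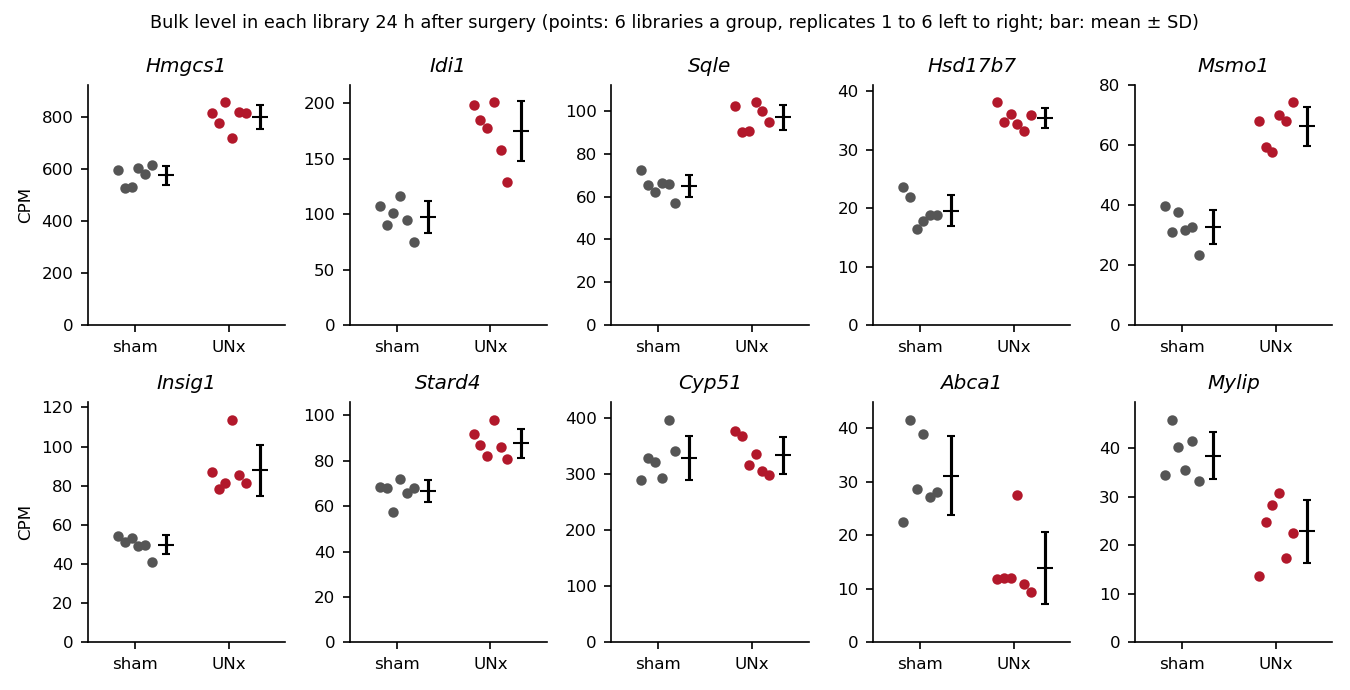
CPM of 10 of the genes in each bulk library at 24 h (grey, 6 sham libraries; red, 6 UNx libraries; bars, mean ± SD; each y axis starts at 0). The UNx points of Hmgcs1, Idi1, Sqle, Hsd17b7, Msmo1, Insig1 and Stard4 all lie above the sham points, those of Mylip all lie below, Cyp51 overlaps, and 1 UNx point of Abca1 reaches the sham range.

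UNx replicate 4 at 24 h was also the library with the most adipose marker RNA. Its summed CPM over Adipoq, Plin1, Cidec and Ucp1 was 284, against 0.0451 to 2.85 in the other 24 h UNx libraries and 0.147 to 0.892 in the 24 h shams. Without it Abca1 was at -1.47 (adjusted p = 7.29e-05, edgeR), Mylip at -0.84, Stard4 at 0.36 and Sc5d at 0.25, all still called. Connecting tubule and principal cell markers (Calb1, Aqp2, Scnn1g) summed to 337 to 482 CPM in the 24 h UNx libraries and 237 to 361 in the shams, and proximal tubule markers to 7861 to 9215 and 8205 to 9478 CPM. Their part in the sterol gene differences was not tested. With the pseudogene score as a covariate at 24 h, 3 genes were called, all higher: Fdft1 (0.90), Lss (0.99) and Nsdhl (0.77). Standard errors of the 24 called genes were 2.07 to 2.86 times as large in that fit. The log2 fold change kept its sign in 22 of the 24 and was larger in 13, such as Fdps (1.34), Hmgcs1 (0.57), Abca1 (-1.87) and Mylip (-0.93), and turned sign in Tm7sf2 and Insig2. With the score as a covariate over the 36 libraries, an alternative chosen after seeing the data, 17 were called higher and 2 lower (Abca1 at -1.11 and Soat1 at -0.25). The share of all genes called was not computed in either fit with the score, so these counts cannot be set against a background.

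At 48 h the pattern was smaller and of mixed direction. Among the 31 genes 7 rose, against 16.8% of the 14280 genes tested, and 3 fell, against 15.8% (edgeR). Counts of this size are near the background shares. The median log2 fold change of the 31 was 0.03, against -0.04 over the genes tested, and that of the 20 enzymes was 0.16, with 5 called. The 7 that rose were Pmvk (0.42), Mvd (0.54), Nsdhl (0.67), Ebp (0.41), Dhcr7 (0.29), Srebf2 (0.29) and Scap (0.39). The 3 that fell were Abca1 (-0.84), Insig2 (-0.48) and Stard4 (-0.46). Groups did not overlap in 3 higher genes (Mvd, Nsdhl and Scap), against 6.21% of genes tested, and in 1 lower gene (Abca1), against 4.81%.

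Nsdhl had the lowest p in the higher direction at 48 h. Its lowest, median and highest CPM were 57.0, 60.5 and 61.3 in the shams and 78.6, 93.0 and 112 in the UNx kidneys, for a log2 fold change of 0.67 ± 0.0799 (adjusted p = 0.000283, edgeR). Abca1 had the lowest p in the lower direction, at 32.0, 39.2 and 44.6 CPM in the shams and 14.8, 22.1 and 29.1 in the UNx kidneys (-0.84 ± 0.140, adjusted p = 0.000827, edgeR). Neither gene's groups overlapped. Mvd, Nsdhl, Dhcr7, Srebf2, Scap and Abca1 were called in the same direction at 24 and 48 h, and Stard4 and Insig2 turned from higher to lower. Several other genes with clear differences at 24 h were close to the shams at 48 h. Hmgcs1 was 554 ± 50.1 CPM in the shams and 549 ± 45.1 in the UNx kidneys (-0.01), and Idi1 (-0.05), Sqle (0.01), Hsd17b7 (0.03), Insig1 (-0.03), Soat1 (-0.08) and Mylip (-0.17) were not called. The calls of Dhcr7 and Srebf2 were each lost without any 1 of UNx replicates 1, 3 and 5 and shams 1, 2, 3, 4 and 6, and that of Srebf2 also without UNx replicate 2 (adjusted p of 0.0549 to 0.11, edgeR). In UNx replicate 6, whose profile was that of the shams, 5 of the 10 called genes lay beyond every sham in the called direction: Mvd, Nsdhl, Ebp and Scap above them and Abca1 below. Pmvk, Dhcr7 and Stard4 lay within the sham range, and Srebf2 and Insig2 beyond it on the other side. Replicate 6 was itself among the libraries that gave the calls, and the same share over all called genes was not computed. The count of 5 therefore cannot be set against a background. With UNx replicates 1 to 5 left out, so that replicate 6 alone faced the 6 shams and was assumed to vary as they do, 0 of the 31 were called, and Pmvk, Dhcr7, Srebf2 and Insig2 had the opposite sign. Abca1 was at -1.20 and Nsdhl at 0.40 in that fit (adjusted p = 0.158 for each, edgeR). Insig2 was at 40.3 CPM and Stard4 at 81.6 in UNx replicate 6, against 21.2 to 27.2 and 49.7 to 60.4 in the other 5 UNx libraries. Surgery and the profile cannot be told apart in replicates 1 to 5.

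At 72 h, where both groups shared 1 library profile, 0 of the 31 genes passed the test, against 1.20% of the 14556 genes tested called higher and 0.488% called lower (edgeR). At an unadjusted p under 0.05 there were 13, against 17.0% of genes tested. A positive log2 fold change was seen in 24 of the 31, against 48.9% of genes tested, with a median of 0.14 against -0.00415 over the genes tested. DESeq2's Wald test called 3: Mvd (0.38) and Msmo1 (0.42) higher and Ggps1 (-0.18) lower. Mvd had the lowest p in the higher direction, at 43.0 ± 4.43 CPM in the shams and 55.7 ± 8.24 in the UNx kidneys (0.37 ± 0.0986, adjusted p = 0.0737, edgeR). Ggps1 had the lowest in the lower direction, and its groups did not overlap, at 25.4 to 28.1 CPM in the shams and 21.2 to 24.1 in the UNx kidneys (-0.18 ± 0.0480, adjusted p = 0.0731, edgeR). It was the only 1 of the 31 whose UNx libraries all lay below the shams at 72 h, against 0.749% of genes tested. Hmgcs1 was 601 ± 44.7 CPM in the shams and 713 ± 117 in the UNx kidneys (0.25), and Idi1 (0.13), Sqle (0.16), Hsd17b7 (0.29), Insig1 (0.40), Stard4 (0.01), Mylip (-0.25), Soat1 (-0.04) and Abca1 (-0.48) were not called.

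With 1 mouse left out, the 72 h count changed from 0 only without UNx replicate 6. The median log2 ratio of the 20 enzymes to the sham mean was -0.125 in it and 0.180 to 0.324 in the other 5 UNx libraries, while the 72 h shams ranged from -0.237 to 0.126. Without it 8 genes were called: Acat2 (0.39), Hmgcs1 (0.32), Mvd (0.44), Msmo1 (0.50), Hsd17b7 (0.37), Ebp (0.23) and Insig1 (0.49) were higher and Ggps1 (-0.19) lower (edgeR). The share of all genes called was not computed in that fit, so the count of 8 cannot be set against a background. UNx replicate 6 also had the most Abcg1, 30.5 CPM against 5.52 to 6.93 in the other 72 h UNx libraries. Its endothelial markers summed to 247 CPM and its connecting tubule and principal cell markers to 922, the highest sums of the 36 libraries. The other libraries with high Abcg1 were sham 72 h replicate 5 (26.1 CPM) and sham 48 h replicates 1 and 3 (16.9 and 15.8), with endothelial sums of 219, 208 and 189 and connecting tubule and principal cell sums of 659, 675 and 669. Sham 24 h replicate 1 and UNx 48 h replicate 3 had endothelial sums of 193 and 190 with Abcg1 at only 5.99 and 5.54 CPM. Their connecting tubule and principal cell sums were lower, at 361 and 456. The part of these cell types in the sterol gene values of those libraries was not tested.

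**Figure D3:**
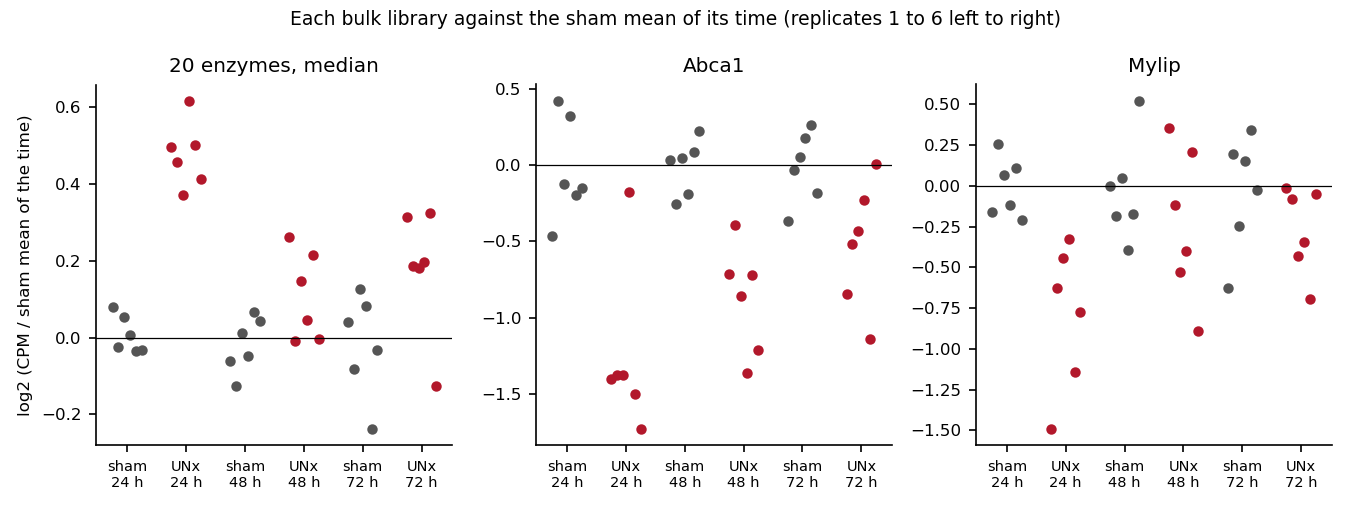
Each bulk library as log2 of its CPM over the sham mean of its time, for the median of the 20 enzymes (left), Abca1 (middle) and Mylip (right), with shams grey and UNx red. The enzyme median is 0.372 to 0.616 in the 24 h UNx libraries and -0.035 to 0.080 in their shams, and the groups overlap at 48 and 72 h.

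The change of the surgical effect with time was tested over the 36 libraries. From 24 to 48 h the effect became more negative in 13 of the 31 genes, against 17.5% of the 15093 genes tested, and more positive in 2 (Pmvk and Ebp), against 19.2%. The largest moves were in Idi1 (-0.86 ± 0.213), Stard4 (-0.83), Insig1 (-0.82), Hsd17b7 (-0.80), Insig2 and Lss. From 24 to 72 h it became more negative in 3 (Lbr, Hsd17b7 and Sc5d), against 1.40%, and more positive in none, against 2.67%. That count of 3 was unstable: it was 2 to 7 with 1 mouse left out (7 without sham 24 h replicate 1 or sham 72 h replicate 5) and 9 with DESeq2's Wald test. From 48 to 72 h it became more positive in Insig2 and Stard4, against 5.70%, and more negative in Nsdhl and Scap, against 8.57%. Time and batch are the same split between 24 h and the later times, and cannot be told apart there. With the pseudogene score as a covariate 0 genes differed in any of the 3 contrasts. With UNx 48 h replicates 1 to 5 left out 3 differed from 24 to 48 h (Fdft1 at -0.91, Lss at -0.99 and Hsd17b7 at -0.85) and 0 from 48 to 72 h.

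A further 37 genes of sterol biology that are not among the 31 were listed by role, and 36 were tested in bulk. At 24 h 5 rose and 5 fell, which is near the shares over all genes tested (13.9% and 13.1%), and the counts by role below are small. Tmem97, a sterol-regulated membrane protein that binds Npc1, had the lowest p upward (0.38, adjusted p = 0.00127, edgeR), and Osbpl2, a lipid transfer protein, downward (-0.35, adjusted p = 0.000637, edgeR). Among 8 genes of SREBP processing and degradation 2 rose, among them the ubiquitin ligase Syvn1 (0.39), and 1 fell, the protease Mbtps1 (-0.13). Of 7 LXR and oxysterol genes none rose and 2 fell, Cyp27a1 (-0.32) and Cyp39a1 (-0.38), which hydroxylate sterols. None of 6 uptake and ester genes was called. Of 8 genes of the isoprenoid branches 2 rose, Pdss1 (0.36) and Coq2 (0.26) of ubiquinone synthesis, and Fnta of farnesyl transfer fell (-0.17). At 48 h 6 rose and 7 fell, again near the shares over all genes (16.8% and 15.8%), with the lowest p in Lpcat3 upward (0.54, adjusted p = 0.000848, edgeR) and Vldlr downward (-0.41, adjusted p = 0.000748, edgeR). At 72 h 0 were called.

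The nucleus data hold 16500 nuclei in 30 classes that the authors deposited. By group and replicate there were 5342 and 2641 sham nuclei and 5151 and 3366 UNx nuclei, with a median of 7581 to 9909 UMIs per nucleus, and 18 barcodes occurred in more than 1 library. Slc34a1 was highest in the proximal tubule class PTS1, Slc12a1 in the thick ascending limb and Slc12a3 in the distal convoluted tubule. The fibroblast marker Pdgfra was highest in the class named Per (389 UMI CPM) and not in Fib (247), while Pdgfrb and Col1a1 were highest in Fib. In the 14 classes with at least 50 nuclei in every mouse, levels are UMIs per 1e+06 UMIs of that class and mouse (UMI CPM), averaged over the 4 mice with sham and UNx together. In the 2 sham mice alone the highest class was the same in 21 of the 31 genes and the lowest in 16. Free RNA was not removed, and low levels can include it.

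Hmgcs1, the enzyme with the most UMIs, was highest in the proximal tubule. It stood at 359 UMI CPM in PTS3 (range 305 to 416), 346 in PTS2 (265 to 449) and 249 in PTS1 (193 to 341), and then at 188 in the medullary thick ascending limb (MTAL, 87.4 to 285). Ranges of neighbouring classes overlap all along this order, down to 102 in medullary principal cells (MPC, 21.3 to 197). Cyp51 was 148 in PTS3 (113 to 173), above the range of every other of the 14 classes, which averaged 47.0 (MPC) to 73.5 (CTAL1, a cortical thick limb class). Srebf2 ran from 122 in CTAL1 (88.6 to 153) down to 52.3 in PTS3 (32.1 to 74.9), the class where Hmgcs1 and Cyp51 were highest. Idi1 was 85.0 in PTS1 (70.1 to 113), above the range of the other classes, and lowest in the connecting tubule (CNT, 19.5). Dhcr7 was 13.8 in PTS3 and 2.60 in the endothelial class EC2, where 1 mouse had 0. Insig2, Scap and Ebp were the most even, with 1.43, 1.48 and 1.68 times between the highest and the lowest class.

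Transport genes were distributed differently. Abcg1 averaged 74.5 UMI CPM in MPC (53.6 to 88.5), 64.9 in EC1, 52.4 in the class named Uro and 49.9 in EC2, but 13.1 or less in the other 10 classes, down to 2.09 in PTS2 (0.254 to 4.76), a 35.7-fold difference. Abca1 averaged 113 in MPC and 108 in EC2, and 9.13 in CTAL2, a 12.4-fold difference. Mylip averaged 108 in MPC (58.7 to 147) and 16.5 in CTAL2 (8.68 to 26.0), a 6.58-fold difference, but in the 2 sham mice alone it was highest in PTS3 (144 and 181, against 130 and 96.6 in MPC). Soat1 averaged 28.8 in PTS3 and 6.68 in CTAL1, a 4.31-fold difference. Across the 6 proximal tubule and thick limb classes Abca1 averaged at most 18.8 (PTS1) and Abcg1 at most 5.65 (MTAL).

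**Figure D4:**
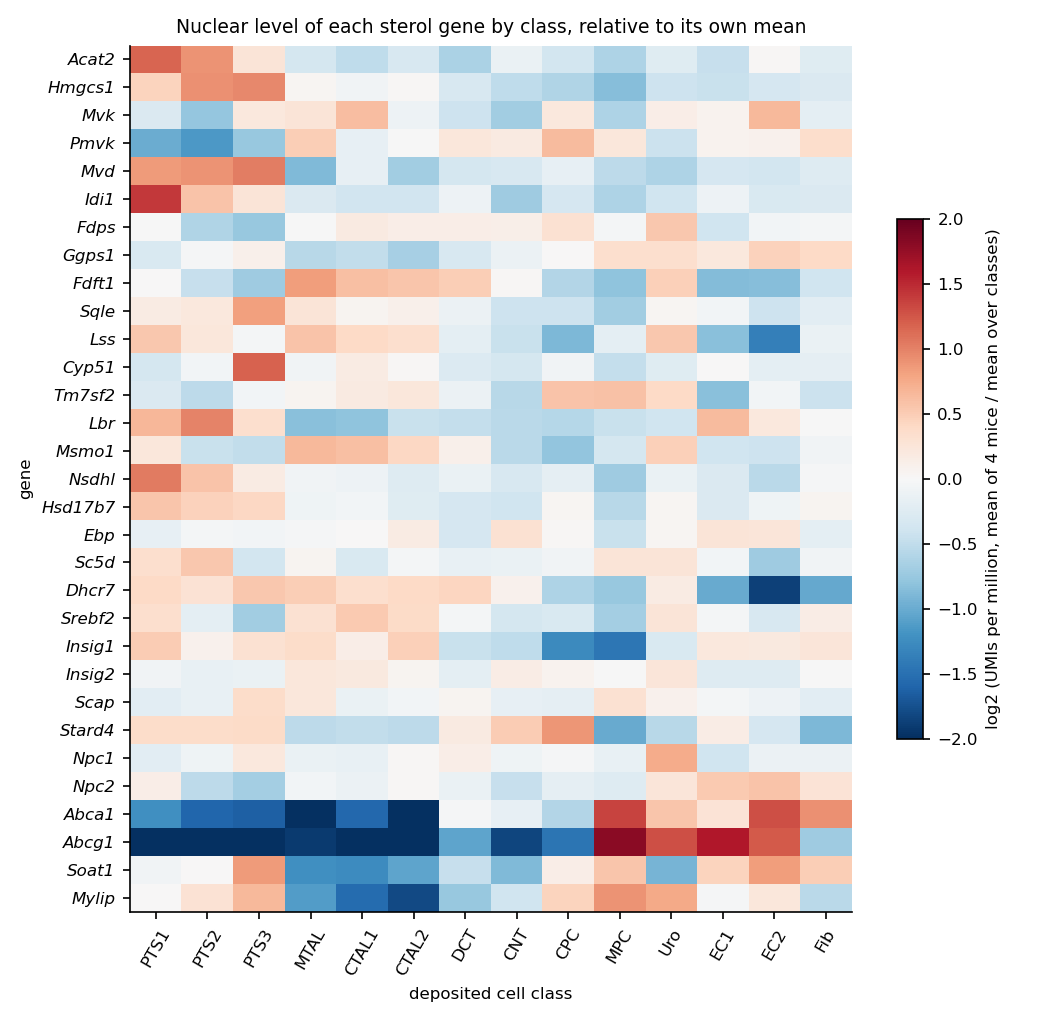
Level of each of the 31 genes in 14 deposited classes, as log2 of its UMI CPM (mean of 4 mice) over its own mean across the classes, with red above and blue below that mean and the colour scale ending at ±2. Abcg1 and Abca1 are blue across the proximal tubule (PTS1 to PTS3) and thick limb (MTAL, CTAL1, CTAL2), and Acat2, Hmgcs1 and Mvd are red in the 3 proximal tubule classes.

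Summed per mouse, the proximal tubule classes PTS1 to PTS3 were set against all other nuclei with the mouse as a block (edgeR). In proximal tubule 12 of the 31 genes were higher, against 21.9% of the 17724 genes tested, and 2 were lower, against 22.4%. The higher ones were Mvd (1.92 log2), Acat2 (1.56), Idi1 (1.48), Hmgcs1 (1.40), Lbr (1.34), Nsdhl (1.18), Hsd17b7 (0.89), Stard4 (0.87), Dhcr7 (0.64), Insig1 (0.54), Soat1 (0.46) and Ggps1 (0.25). Hmgcs1 averaged 344 ± 73.4 CPM in proximal tubule and 152 ± 99.8 elsewhere (SD, n = 4) and was higher in 4 of 4 mice. Pmvk (-1.22) and Abca1 (-1.42, 17.7 ± 8.89 against 43.8 ± 7.41 CPM) were lower in 4 of 4 mice. Abcg1 was lower in 4 of 4 mice (-3.51) with an adjusted p of 0.066 (edgeR). The calls rest on the number of mice: without UNx replicate 2 there were 6 calls, without any 1 of the other mice 0, and without the block 7. Proximal tubule nuclei also held more UMIs (class medians of 10874 to 13612) than MTAL nuclei (6507).

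Between UNx and sham nuclei no gene of the 31 passed the test over all nuclei, and neither did any other of the 19975 genes tested (0%, edgeR), with 2 mice a group. At an unadjusted p under 0.05 there were 2, against 1.77% of genes tested, the LXR targets Mylip (-1.48) and Abca1 (-0.60), which were also called lower in bulk at 24 h. Mylip stood at 83.1 and 90.8 UMI CPM in the sham mice and at 39.8 and 20.8 in the UNx mice. Abca1 stood at 35.4 and 42.6 in the shams and at 25.3 and 23.7 in the UNx mice. In both genes the UNx mice were below the shams. Insig1 was 8.43 and 10.2 in the shams and 13.6 in each UNx mouse. Hmgcs1 overlapped, at 199 and 231 against 194 and 330, as did the LXR target Abcg1, at 11.4 and 14.3 against 11.5 and 12.0. Acat2 was called higher in bulk at 24 h but was lower in the UNx mice here, at 38.3 and 42.8 against 23.4 and 33.4. Of the 31 genes 23 had a positive log2 fold change, against 47.9% of genes tested, with a median of 0.26.

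By class, 502 pairs of a gene and a class were tested in 23 classes and none was called (0% of all 219721 pairs), with 18 at an unadjusted p under 0.05, against 0.680% of all pairs, and 321 positive, against 49.3%. DESeq2's Wald test called 2, both lower. With the labelled batch, which pairs 1 sham and 1 UNx mouse, as a block, 8 pairs were called, against 0.667% of all pairs. In PTS3 Mylip was at -3.04 (144 and 181 UMI CPM in the shams, 23.9 and 15.6 in the UNx mice, adjusted p = 0.000139, edgeR), Abca1 at -1.76 and Insig1 at 1.30. Insig1 in PTS3 was 6.37 and 7.83 in the shams and 17.4 and 17.1 in the UNx mice. Hmgcs1 was called higher in MTAL (1.15, 87.4 and 160 against 221 and 285) and in CTAL2 (1.13, 93.5 and 147 against 198 and 311), and Sqle in CTAL1 (1.44). Mylip was called lower in the distal convoluted tubule (-1.08) and Acat2 in PTS2 (-0.79), the opposite direction to Acat2 in bulk at 24 h. In Sqle in CTAL1 the groups overlapped (7.10 and 27.1 against 22.9 and 62.1).

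In medullary thick ascending limb nuclei most synthesis genes had higher levels after UNx. In MTAL 19 of 20 enzymes had a positive log2 fold change (median 0.93, against 0.00377 over the genes tested in MTAL). The share of all genes with a positive value in MTAL was not computed. In each batch the UNx mouse exceeded its sham partner in 15 of 20 enzymes, against 21.0% of genes tested in MTAL, and both UNx mice exceeded both shams in 14, against 5.87%. The size differed between batches, with a median log2 ratio of 1.18 in batch 3 and 0.226 in batch 4. Msmo1 shows this: it was 14.0 in sham and 86.1 in UNx in batch 3, and 35.9 and 39.9 in batch 4. Stard4 in MTAL was 8.77 and 9.99 in the shams and 24.0 and 27.9 in the UNx mice, and Insig1 was 5.56 and 5.94 against 27.7 and 11.8. Abca1 was 16.8 and 18.7 in the shams and 2.40 and 6.52 in the UNx mice, and Mylip 30.7 and 49.7 against 10.4 and 15.5. The test called none of these 4 genes in MTAL. In CTAL2 the UNx mouse was higher in both batches in 13 of 20 enzymes, against 22.5%. In PTS1 the batches went opposite ways, with 5 of 20 enzymes higher in UNx in batch 3 and 16 of 20 in batch 4, and PTS2 was alike (6 and 16). In PTS3 13 and 14 were higher. In PTS1 4 of 20 were higher in both, against 20.2% of the genes tested there, which is the background share, and in PTS3 9 of 20 were, against 27.1%. In the other 10 classes with at least 50 nuclei in every mouse, 3 to 10 of 20 were higher in both. No share over all genes was computed in those classes or for single batches. Those counts therefore cannot be set against a background. The batches have 1 mouse per group, so a difference between batches and a difference between mice cannot be told apart, and whether MTAL differs from the other classes was not tested.

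**Figure D5:**
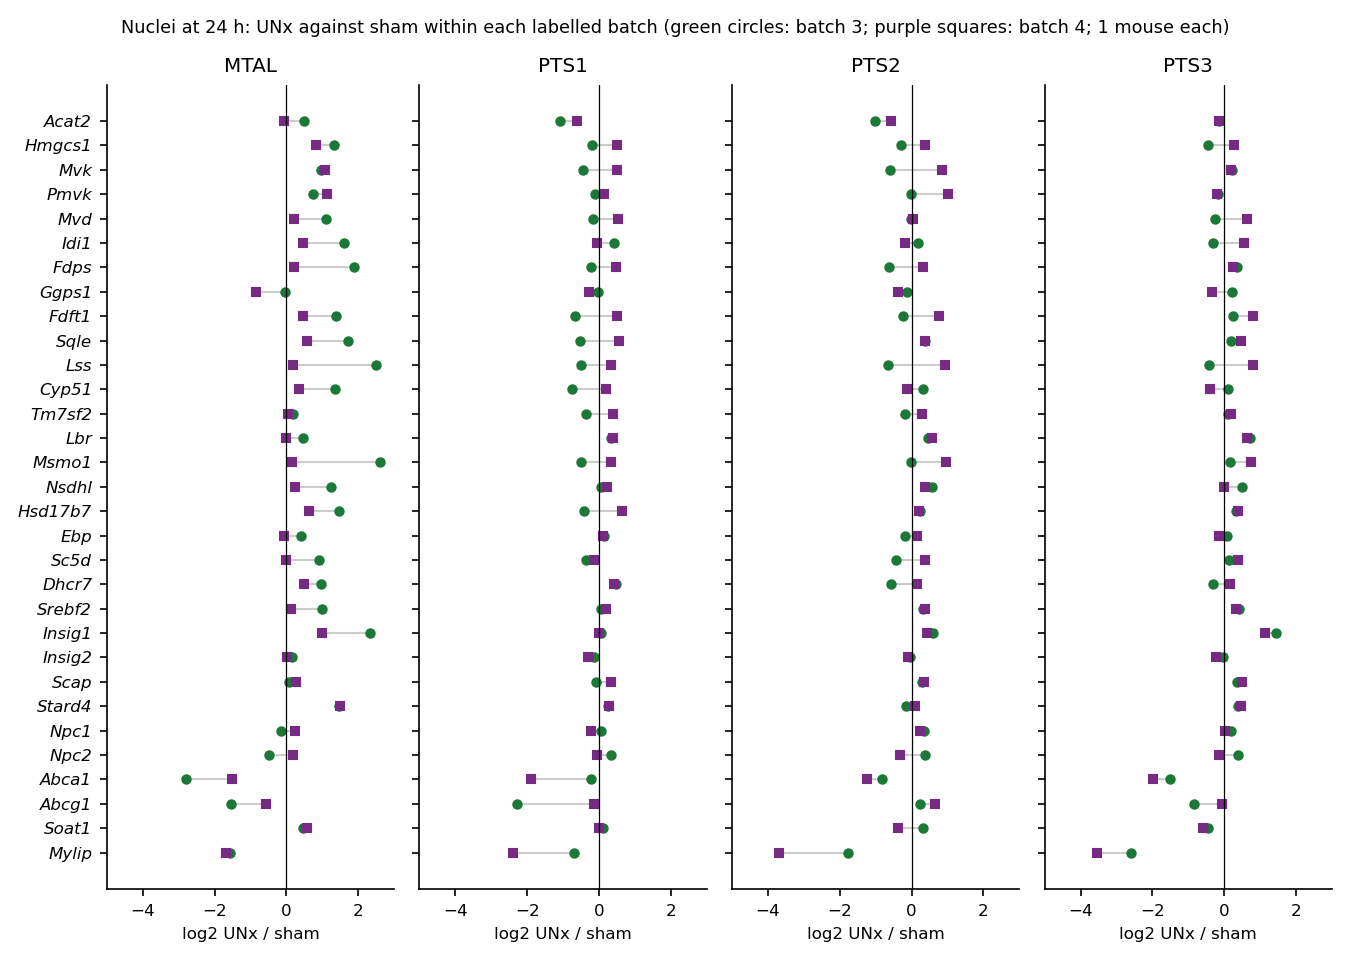
Log2 ratio of UMI CPM, UNx over sham, within batch 3 (green circles) and batch 4 (purple squares) for the 31 genes in MTAL and the 3 proximal tubule classes, 1 mouse per group and batch. In MTAL 15 of 20 enzymes are above 0 in both batches, in PTS1 4 of 20, and Mylip and Abca1 are below 0 in both batches in all 4 classes.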

How the data were processed

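Bulk values are estimated counts per gene that the authors deposited, made with Salmon 1.5.0 after FastQC 0.11.8 on GRCm39 per the submitters' processing notes, from poly-A RNA and a stranded kit per the labels' protocols. Nucleus values are estimated UMI counts that the authors deposited with their class names (alevin, Seurat and mm10 in the submitters' processing notes; doublet treatment is not given in the sources used here). Of the bulk values 34.1% were not whole, and of the nucleus values above 0 13.9%. All were rounded for testing. Gene names came from GENCODE M21, which left 127 bulk genes unnamed. Samples were grouped by the labels, and p-values measure the spread between mice.

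Each time was fitted on its own 12 libraries with edgeR 4.0.16 in R 4.3.3 (filterByExpr, TMM, robust quasi-likelihood F-test, two-sided, Benjamini-Hochberg over all genes tested). Time differences used 36 libraries. Nucleus counts were summed per mouse and class, in classes with at least 10 nuclei in every mouse. Alternatives included DESeq2 1.42.0, size factors, no filter, a replicate block, the pseudogene score and leaving out each mouse. The scripts were tested on simulated data. No replicate pair was closer than sampling noise, with a lowest chi-square per gene of 5.04.

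The 31 genes and all other lists were chosen with earlier results of these data known. Genes given with full values are the lowest p of each role at 24 h, those called lower without overlap, and, at later times, the lowest p in each direction. Class values are given for the genes with the most UMIs and those that differ 4 times or more between classes. Abca1, Msmo1 and genes named for 1 library were added after their values were seen. Values of 1 gene counted among the further sterol genes are not reported here.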

Additional observations from a re-analysis of the deposited data

Results flagged for a closer look

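In 12 of 186 groups of 6 libraries, 1 library lay apart from the rest by the gap test, which chance alone gives in about 1 in 20 groups. UNx 24 h replicate 4 accounted for 3 of them, with 58.3 CPM of Sc5d (47.0 to 49.2 in the other libraries of the group), 114 of Insig1 (78.3 to 87.0) and 27.6 of Abca1 (9.41 to 12.0). UNx 72 h replicate 6 accounted for another 3, with 117 CPM of Idi1 (209 to 256), 54.8 of Ebp (69.4 to 71.9) and 30.5 of Abcg1 (5.52 to 6.93). UNx 48 h replicate 6 had 40.3 CPM of Insig2 (21.2 to 27.2) and 81.6 of Stard4 (49.7 to 60.4). The others were shams: 41.0 CPM of Insig1 in 24 h replicate 6 (49.4 to 54.4), 651 of Hmgcs1 in 48 h replicate 1 (513 to 557), 689 of Hmgcs1 in 72 h replicate 2 (567 to 604) and 26.1 of Abcg1 in 72 h replicate 5 (5.95 to 8.16).

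In 22 cases the effect of surgery (log2, UNx minus sham) differed between times by the interaction test. From 24 to 48 h the difference of effects was 0.39 for Pmvk and 0.30 for Ebp. It was -0.46 for Hmgcs1, -0.86 for Idi1, -0.68 for Fdps, -0.49 for Fdft1, -0.54 for Sqle and -0.69 for Lss. After lanosterol it was -0.69 for Lbr, -0.61 for Msmo1, -0.80 for Hsd17b7 and -0.37 for Sc5d. For Insig1 it was -0.82, for Insig2 -0.70 and for Stard4 -0.83. From 24 to 72 h it was -0.61 for Lbr, -0.54 for Hsd17b7 and -0.46 for Sc5d. From 48 to 72 h it was -0.38 for Nsdhl, -0.31 for Scap, 0.45 for Insig2 and 0.46 for Stard4. With the pseudogene score as a covariate none of the 3 contrasts called a gene among the 31, so the part of the library profile in these differences and the part of time cannot be told apart.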

How the results depend on the processing

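Calls at 24 h numbered 24 and were 19 to 24 under every alternative except the pseudogene score within that time, which left 3. At 48 h 10 became 0 with the score, 0 with UNx replicates 1 to 5 left out, and 0 in each of the 36-library fit with the score and the fit of the other 31 libraries, both chosen after seeing the data. At 72 h 0 became 3 with DESeq2's Wald test, 3 in the 36-library fit and 2 in that fit with the score. From 24 to 48 h 15 differences became 0 with the score and 3 without UNx replicates 1 to 5. From 24 to 72 h 3 became 9 with the Wald test, 5 without mitochondrially encoded genes and 0 with the score. From 48 to 72 h 4 became 0 with the score and 0 without UNx replicates 1 to 5. Proximal tubule calls fell from 14 to 7 with no replicate block. Class calls went from 0 to 2 (Wald test) and 8 (replicate block). Leaving out 1 mouse gave 23 to 24 calls at 24 h, 8 to 14 at 48 h, 0 to 8 at 72 h (8 without UNx replicate 6), 13 to 16 differences from 24 to 48 h, 2 to 7 from 24 to 72 h, 3 to 6 from 48 to 72 h, 0 to 6 in proximal tubule and 0 in nuclei by class or in all.

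A replicate block in bulk gave 23 calls at 24 h, 12 at 48 h and 0 at 72 h, and 14 differences from 24 to 48 h. Same-numbered libraries had correlated deviations of -0.297 to 0.140 and were best matched to their own number in 0, 1 and 1 of 6 pairs, so the numbers do not pair mice. The block changed no other bulk count by over 1.5 times.

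Among 6231 values of single genes under the alternatives, 5899 kept their side of the threshold, of which 358, called in neither fit, turned sign. Another 82 newly passed it, 227 no longer passed, and 23 turned sign with a call in at least 1 of the fits compared. With the score at 24 h Tm7sf2 was at -0.0442 and Insig2 at -0.0786 (-0.0355 over 36 libraries). With the score at 48 h Pmvk was at -0.0353, Srebf2 at -0.18, Insig2 at 0.0763 and Stard4 at 0.0245 (Pmvk -0.0153, Srebf2 -0.11 and Insig2 0.0533 over 36 libraries). Without UNx 48 h replicates 1 to 5 Pmvk was at -0.0508, Dhcr7 at -0.0373, Srebf2 at -0.21 and Insig2 at 0.0851 (-0.0463, -0.0323, -0.21 and 0.0901 with 31 libraries). For the differences from 24 to 48 h, Pmvk was at -0.29 and Insig2 at 0.0888 with the score, and Pmvk at -0.10 without those replicates. From 48 to 72 h Insig2 was at -0.00599 with the score and -0.11 without them. The cause of these changes was not tested. In nuclei 2 mice a group limit the precision, and low genes such as Tm7sf2 and Lss hold few UMIs per class.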
